A study of Mus musculus with 18 samples.

Results

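A set of 7 genes that mark circulating monocytes and their patrolling subset were followed in whole mouse lung: Adgre4, Nr4a1, Cx3cr1, Itgam, Itgal, Spn and Csf1r. They are 7 of the 18193 genes measured by a probe set of their own, and each was read from its probe set with the highest mean over all arrays. The 18 lungs came from male mice aged 16 weeks, 9 of the inbred strain A/J and 9 of C57BL/6, and each lung was measured on 1 expression array. All mice, the controls included, had been sensitized with 3 weekly injections of 100 µg of ovalbumin, the egg white protein used as the allergen here, in alum into the peritoneum. Beginning 7 days later they breathed an aerosol for 30 min on each of 3 days. The PBS groups breathed saline buffer, the ovalbumin groups 1% ovalbumin, and the resiquimod groups 1% ovalbumin after 100 µg of resiquimod into the peritoneum 24 h before each challenge, with 3 mice in every group. Resiquimod (R-848, S-28463) is a small molecule that activates Toll-like receptor 7. No group listed in the labels received resiquimod without ovalbumin, so its own effect and its effect on the response to ovalbumin cannot be told apart.

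Mouse blood holds classical monocytes, which enter inflamed tissue, and nonclassical or patrolling monocytes, which crawl along the walls of small vessels and are known for clearing debris from them, in the lung as in other organs. Csf1r, the receptor of colony-stimulating factor 1, keeps monocytes and macrophages alive. Nr4a1, an orphan nuclear receptor, is required for patrolling monocytes to develop and is also an immediate early gene of many cell types, while Cx3cr1, the receptor of the chemokine fractalkine, favours their survival. Itgal and Itgam are the alpha chains of the integrins LFA-1 and Mac-1, with which leukocytes hold on to endothelium, and LFA-1 carries the patrolling movement. Spn encodes CD43, a sialylated surface protein abundant on patrolling monocytes, and Adgre4 is an adhesion G protein-coupled receptor of mouse monocytes and macrophages. None of the 7 belongs to monocytes alone: T and NK cells carry LFA-1 and CD43, neutrophils and NK cells carry Mac-1, and subsets of NK and T cells carry Cx3cr1.

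Promoter sequences were found for 5 of the 7 genes in RefSeq (build GRCm38.p6), Itgal and Csf1r being those without an entry used here. The 250 bases before the start site are shown for Nr4a1 and Itgam, the 2 among these 5 that matched a searched motif. In Nr4a1, on the plus strand at chr15:101266596-101266845, capitals mark the cyclic AMP response element-like letters TGCGTCA, and in Itgam, on the plus strand at chr7:128062390-128062639, they mark GAGGAA, the core bound by the myeloid factor PU.1 (Spi1).
Nr4a1: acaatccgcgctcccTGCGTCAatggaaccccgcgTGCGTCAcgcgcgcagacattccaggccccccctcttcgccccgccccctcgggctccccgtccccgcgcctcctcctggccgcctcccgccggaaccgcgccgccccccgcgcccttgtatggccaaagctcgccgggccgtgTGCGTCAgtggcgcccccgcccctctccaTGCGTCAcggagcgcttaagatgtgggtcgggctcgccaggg
Itgam: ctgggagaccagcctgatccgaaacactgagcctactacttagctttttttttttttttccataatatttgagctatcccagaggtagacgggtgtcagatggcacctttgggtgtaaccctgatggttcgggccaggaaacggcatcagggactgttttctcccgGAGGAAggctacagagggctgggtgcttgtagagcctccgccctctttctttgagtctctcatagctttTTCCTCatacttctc
TGCGTCA occurred 4 times in the Nr4a1 window, beginning at -235, -215, -71 and -42 from the start site, all on the strand of the gene. Of 32851 mouse promoter windows of the same length, 1.75% held this motif at least once. GAGGAA occurred in the Itgam window at -84 on the strand of the gene and at -15 on the opposite strand, and 23.3% of the windows held it. Both strands were searched in each case, and the matches do not overlap each other. The letters TGANTCA of AP-1 (6.75% of windows), AGGTCA of the NBRE core that Nr4a receptors bind (14% of windows) and the interferon-stimulated response core (2.98% of windows) were not found in the 5 windows. Itgam, Itgal and Spn all lie on chromosome 7, at places 1796, 1760 and 1751 in the order of its protein-coding genes, and the other members lie on other chromosomes.

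Values are RMA levels on a log2 scale, so that a difference of 1 is a factor of 2, and they are relative within a probe set and not comparable between genes. For scale, the median of all values on the arrays was 4.78. Arrays of a group correlated with Pearson r of 0.987 to 0.997 over probe sets, which are not independent of each other. Transcripts of squamous epithelium stood out on 8 of the 18 arrays (mean of 11 genes at least 7.06, against at most 4.45 on the others), and every group held 1 or 2 such arrays. In whole lung, fewer cells of a type and less RNA per cell cannot be told apart.

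Resiquimod with ovalbumin gave the highest mean of 6 of the 7 genes within A/J, Csf1r being the exception, and of all 7 within C57BL/6. Against ovalbumin alone, 6 of the 7 genes rose in A/J, where 7.12% of all probe sets tested were called in either direction, and all 7 rose in C57BL/6, where 7.82% were called. A gene is called here when limma's moderated test, adjusted by Benjamini-Hochberg over 45037 probe sets, gives an adjusted p under 0.05. In A/J the count was 3 when only the groups compared were fitted and 2 without the arrays that hold squamous epithelium transcripts, whose omission leaves 10 arrays. The median change of the 7 genes was 1.05 in A/J and 1.60 in C57BL/6, beside medians of -0.003 and -0.02 over all genes. Ovalbumin against PBS gave 1 call among the 7, a fall of Cx3cr1 in A/J, with 3.15% of probe sets called in that comparison. In C57BL/6 no member was called for ovalbumin by limma (1 had an unadjusted p under 0.05), with 1.06% of probe sets called.

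**Figure D1:**
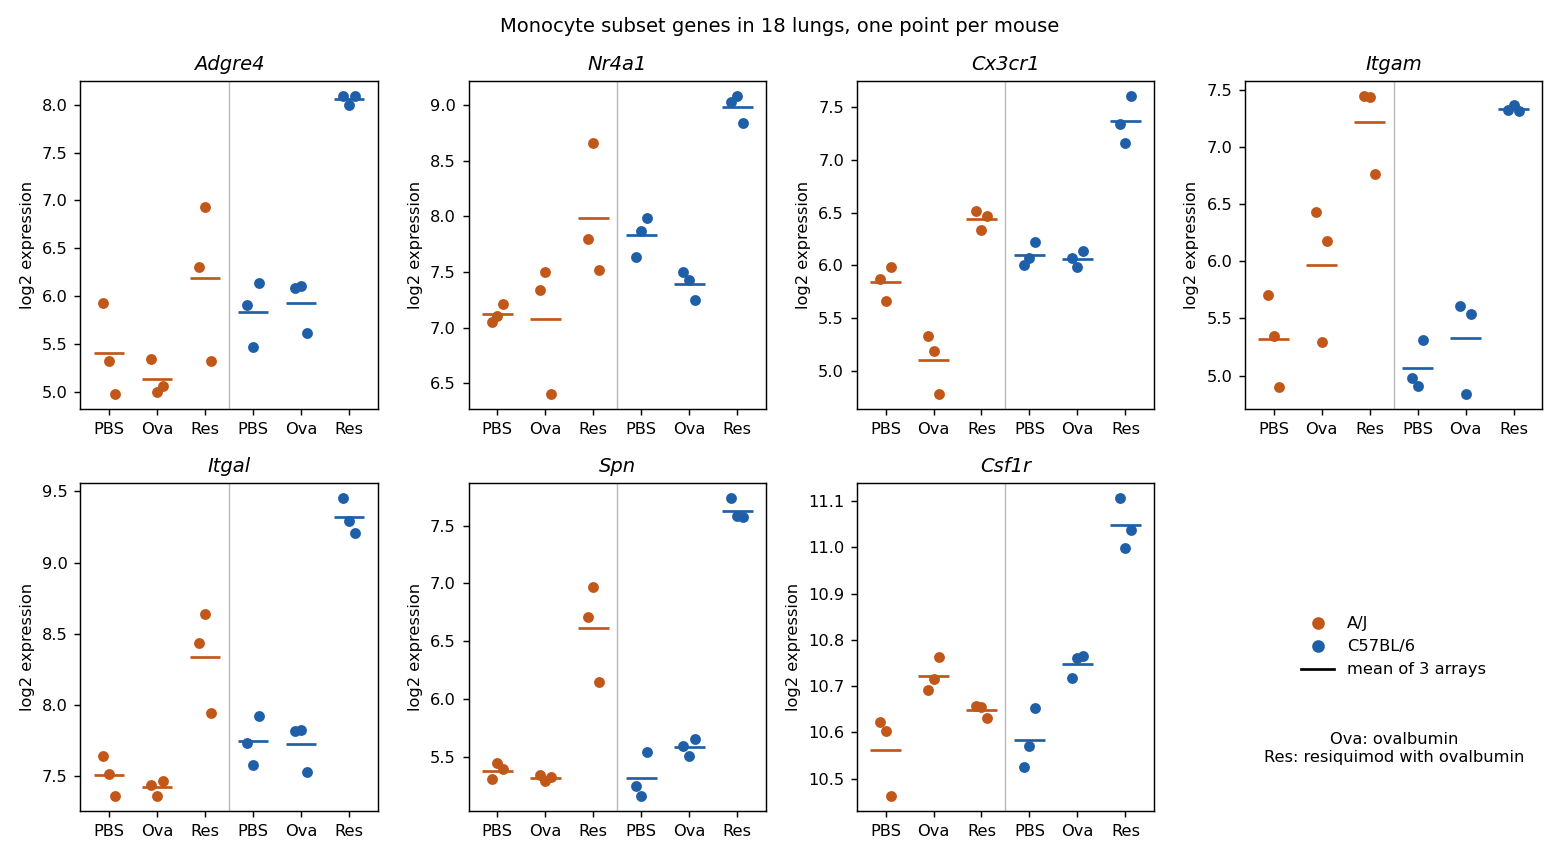
Log2 expression of each of the 7 genes on the 18 arrays, 1 point per mouse, by treatment (PBS, Ova for ovalbumin, Res for resiquimod with ovalbumin), with A/J in orange, C57BL/6 in blue and the mean of 3 arrays as a bar; each panel has its own axis, which does not start at 0. The 3 C57BL/6 resiquimod arrays lie above all other C57BL/6 arrays in every panel, while in A/J the resiquimod points of Csf1r lie between 10.63 and 10.66, inside the span of the other A/J arrays.

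Csf1r (Entrez Gene 12978) is the growth factor receptor on which monocytes and macrophages depend. In A/J its levels were 10.62, 10.60 and 10.46 after PBS, 10.69, 10.71 and 10.76 after ovalbumin, and 10.66, 10.65 and 10.63 after resiquimod with ovalbumin. In C57BL/6 they were 10.53, 10.57 and 10.65 after PBS, 10.72, 10.76 and 10.76 after ovalbumin, and 11.11, 10.998 and 11.04 after resiquimod. The 3 C57BL/6 resiquimod arrays are the highest of the 18, and both PBS groups lie below both ovalbumin groups. Csf1r rose by 0.30 ± 0.06 (SE) from ovalbumin to resiquimod in C57BL/6 (adjusted p = 0.00483) and gave -0.07 ± 0.06 in A/J (adjusted p = 0.563). All 3 probe sets of the gene were called in C57BL/6 and none in A/J for this comparison, and against PBS 1 of the 3, not the one shown, was called in A/J (0.26 ± 0.07, adjusted p = 0.0201). Without the squamous epithelium arrays the C57BL/6 value was 0.31 with an adjusted p of 0.121. Ordered by mean, the 2 PBS groups overlapped, as did A/J resiquimod with C57BL/6 PBS, and A/J ovalbumin with C57BL/6 ovalbumin; C57BL/6 resiquimod stood apart at the top.

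Cx3cr1 (Entrez Gene 13051) is the fractalkine receptor. Its A/J levels were 5.87, 5.66 and 5.99 after PBS, 5.34, 5.19 and 4.78 after ovalbumin, and 6.51, 6.34 and 6.47 after resiquimod. The C57BL/6 levels were 6.01, 6.07 and 6.22 after PBS, 6.07, 5.98 and 6.13 after ovalbumin, and 7.34, 7.15 and 7.60 after resiquimod. In A/J the 3 groups do not overlap, with the ovalbumin lungs lowest of all 18, whereas in C57BL/6 the PBS and ovalbumin lungs share a range. Cx3cr1 fell by 0.74 on the log2 scale after ovalbumin in A/J (SE 0.13, adjusted p = 0.00429) and gave -0.04 ± 0.13 in C57BL/6 (adjusted p = 0.964). The difference between the strains in this ovalbumin effect was -0.70 ± 0.19, which was not called (adjusted p = 0.5). From ovalbumin to resiquimod the gene rose by 1.34 ± 0.13 in A/J (adjusted p = 8.03e-06) and by 1.30 ± 0.13 in C57BL/6 (adjusted p = 9.82e-06). Those A/J comparisons share the ovalbumin arrays; against PBS the A/J resiquimod lungs were higher by 0.60 ± 0.13 (adjusted p = 0.00878), a call lost without A/J PBS replicate 2 (0.51, adjusted p = 0.0515) and without the squamous epithelium arrays (0.58, adjusted p = 0.0705).

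The second probe set of Cx3cr1 has weak signal, with values from 3.08 to 4.98 beside a 25th percentile of 3.33 over all probe sets. It rose with resiquimod by 1.11 ± 0.19 in A/J (adjusted p = 0.0012) and by 1.04 ± 0.19 in C57BL/6 (adjusted p = 0.00184). The ovalbumin change in A/J was -0.30 ± 0.19 there and was not called (adjusted p = 0.511). On the first probe set that A/J fall gave an adjusted p of 0.0565 when only the groups compared were fitted, and of 0.318 (change -0.64) without the squamous epithelium arrays. The rise with resiquimod was thus called on both probe sets. The fall with ovalbumin in A/J was called on 1 of them and had the same sign on the other.

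Nr4a1 (Entrez Gene 15370), the nuclear receptor, has 1 probe set. The A/J levels were 7.05, 7.11 and 7.21 after PBS, 7.34, 7.50 and 6.399 after ovalbumin, and 7.80, 8.66 and 7.51 after resiquimod. In C57BL/6 the lungs gave 7.63, 7.87 and 7.99 after PBS, 7.50, 7.43 and 7.25 after ovalbumin, and 9.03, 9.08 and 8.84 after resiquimod. The A/J values scatter, with 1 low ovalbumin lung (replicate 3) and 1 high resiquimod lung (replicate 2), yet the lowest A/J resiquimod lung is above the highest A/J ovalbumin lung. Nr4a1 rose by 1.59 ± 0.26 with resiquimod over ovalbumin in C57BL/6 (adjusted p = 0.000762) and by 0.91 ± 0.26 in A/J (adjusted p = 0.0419). The A/J call was lost in 15 of 18 fits that left out 1 array, and in 13 of these the change stayed at 0.91 to 1.01, with adjusted p from 0.0503 to 0.0541. It was 0.57 (adjusted p = 0.182) without A/J ovalbumin replicate 3 and 0.57 (adjusted p = 0.195) without A/J resiquimod replicate 2, and 0.59 (adjusted p = 0.558) without the squamous epithelium arrays. Against PBS the A/J change was 0.86 ± 0.26 (adjusted p = 0.0489). This call was also lost in 15 of 18 such fits, at 0.53 (adjusted p = 0.22) without A/J resiquimod replicate 2 and at 0.83 to 0.96 (adjusted p from 0.0512 to 0.13) in the others, and in 4 of 9 other settings. Its C57BL/6 counterpart was 1.16 ± 0.26 (adjusted p = 0.00612), or 1.07 (adjusted p = 0.18) without the squamous epithelium arrays.

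Itgal (Entrez Gene 16408) is the LFA-1 alpha chain. Levels in A/J were 7.64, 7.51 and 7.36 after PBS, 7.44, 7.36 and 7.47 after ovalbumin, and 8.43, 8.63 and 7.94 after resiquimod. Levels in C57BL/6 were 7.73, 7.57 and 7.92 after PBS, 7.82, 7.82 and 7.53 after ovalbumin, and 9.46, 9.29 and 9.21 after resiquimod. PBS and ovalbumin lungs overlap in both strains, all resiquimod lungs lie above them, and the 2 resiquimod groups do not overlap each other. Itgal rose with resiquimod over ovalbumin by 0.92 ± 0.14 in A/J (adjusted p = 0.000665) and by 1.60 ± 0.14 in C57BL/6 (adjusted p = 2.82e-06). Its second probe set gave 0.78 ± 0.17 in A/J and 1.79 ± 0.17 in C57BL/6, both called. Without the squamous epithelium arrays the A/J change was 0.93, as large, with an adjusted p of 0.157.

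Itgam (Entrez Gene 16409), the Mac-1 alpha chain, has 1 probe set. A/J lungs gave 5.71, 5.35 and 4.90 after PBS, 6.44, 5.30 and 6.18 after ovalbumin, and 7.45, 7.44 and 6.77 after resiquimod. C57BL/6 lungs gave 4.98, 4.91 and 5.31 after PBS, 5.61, 4.84 and 5.54 after ovalbumin, and 7.33, 7.37 and 7.32 after resiquimod. Within each strain the resiquimod lungs lie above all others. The resiquimod groups of the strains overlap, as they do for none of the other 6 genes. From ovalbumin to resiquimod Itgam rose by 1.25 ± 0.28 in A/J (adjusted p = 0.0097) and by 2.01 ± 0.28 in C57BL/6 (adjusted p = 0.00019). The ovalbumin change in A/J was 0.65 ± 0.28 and was not called (adjusted p = 0.269), but reached 0.99 (adjusted p = 0.0454) without A/J ovalbumin replicate 2. Against PBS the resiquimod lungs were higher by 1.90 ± 0.28 in A/J (adjusted p = 0.000279) and by 2.28 ± 0.28 in C57BL/6 (adjusted p = 3.07e-05). The A/J rise over ovalbumin gave an adjusted p of 0.0863 when only the groups compared were fitted, and 1.81 (adjusted p = 0.046) without the squamous epithelium arrays.

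Spn (Entrez Gene 20737) encodes the surface sialoprotein CD43. Its A/J lungs gave 5.31, 5.44 and 5.40 after PBS, 5.34, 5.29 and 5.33 after ovalbumin, and 6.71, 6.97 and 6.15 after resiquimod. The C57BL/6 lungs gave 5.25, 5.16 and 5.55 after PBS, 5.59, 5.51 and 5.65 after ovalbumin, and 7.74, 7.58 and 7.57 after resiquimod. No resiquimod lung comes near the others, and every C57BL/6 resiquimod lung is above every A/J resiquimod lung. Spn rose with resiquimod over ovalbumin by 1.29 ± 0.15 in A/J (adjusted p = 3.38e-05) and by 2.04 ± 0.15 in C57BL/6 (adjusted p = 2.1e-07). On the second probe set the rises were 0.86 ± 0.09 and 1.31 ± 0.09, again both called but smaller. Without the squamous epithelium arrays the A/J rise was 1.27, with an adjusted p of 0.0734.

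Adgre4 (Entrez Gene 52614) is the adhesion receptor of the set. Its A/J levels ran 5.93, 5.32 and 4.98 after PBS, 5.34, 5.003 and 5.07 after ovalbumin, and 6.31, 6.94 and 5.32 after resiquimod. Its C57BL/6 levels ran 5.91, 5.47 and 6.14 after PBS, 6.09, 6.10 and 5.61 after ovalbumin, and 8.09, 7.996 and 8.09 after resiquimod. In A/J resiquimod replicate 3 falls among the PBS and ovalbumin lungs, so the groups overlap, while the C57BL/6 resiquimod lungs lie close together and far above the rest. Adgre4 rose by 2.12 ± 0.31 with resiquimod over ovalbumin in C57BL/6 (adjusted p = 0.000296) and by 1.05 ± 0.31 in A/J (adjusted p = 0.0484). The A/J call was lost in 14 of 18 fits that left out 1 array and in 6 of 9 other settings. The change was 0.68 (adjusted p = 0.224) without A/J resiquimod replicate 2, but 0.98 to 1.15 in the other 13 of these fits (adjusted p from 0.0523 to 0.126) and 0.84 to 1.13 in the 6 settings. Against PBS the A/J value was 0.78 ± 0.31 (adjusted p = 0.147), or 1.21 (adjusted p = 0.00661) without A/J resiquimod replicate 3, and in C57BL/6 it was 2.22 ± 0.31 (adjusted p = 0.000106). The second probe set gave 0.84 ± 0.36 in A/J, not called (adjusted p = 0.193), and 2.55 ± 0.36 in C57BL/6 (adjusted p = 0.000219).

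A/J resiquimod replicate 3 was the lowest of its group for 6 of the 7 genes, Cx3cr1 excepted, and lay 0.38 below the group mean on average over the 7. In the same lung the mean of 11 NK and cytotoxic cell genes was 6.96, against 7.39 and 7.42 in the other lungs of the group, and that of 10 neutrophil genes was 7.27, against 7.40 and 7.99. The means of other patrolling monocyte, classical monocyte, T cell and B cell genes were also lowest in this lung. That of alveolar macrophage genes was highest (8.72, against 8.35 and 8.10), and that of interstitial macrophage genes lay between (9.24, against 9.34 and 8.83). C57BL/6 PBS replicate 3 was the highest of its group for all 7 genes.

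Counted over the 13 probe sets of the 7 genes, 9 were called higher for resiquimod over ovalbumin in A/J and all 13 in C57BL/6. Against PBS, 5 of the 7 genes rose in A/J (8.07% of all probe sets called), Nr4a1 only just and Adgre4 and Csf1r not being called, and all 7 rose in C57BL/6 (12.4% called). In A/J the count against PBS was 2 without the squamous epithelium arrays and 3 without A/J PBS replicate 2. The arrays of the groups compared did not overlap for 6 genes in A/J, 5 of them higher with resiquimod and Csf1r lower, and for 7 in C57BL/6 in the comparison with ovalbumin, beside 25.7% and 30.6% of all genes. For ovalbumin against PBS they did not overlap for 2 of 7 genes in each strain, Cx3cr1 and Csf1r in A/J and Nr4a1 and Csf1r in C57BL/6, beside 24% and 17.8% of all genes. Resiquimod's comparison with ovalbumin and that of ovalbumin with PBS share the ovalbumin arrays, so for each gene the changes are given side by side and no relation between them is drawn.

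**Figure D2:**
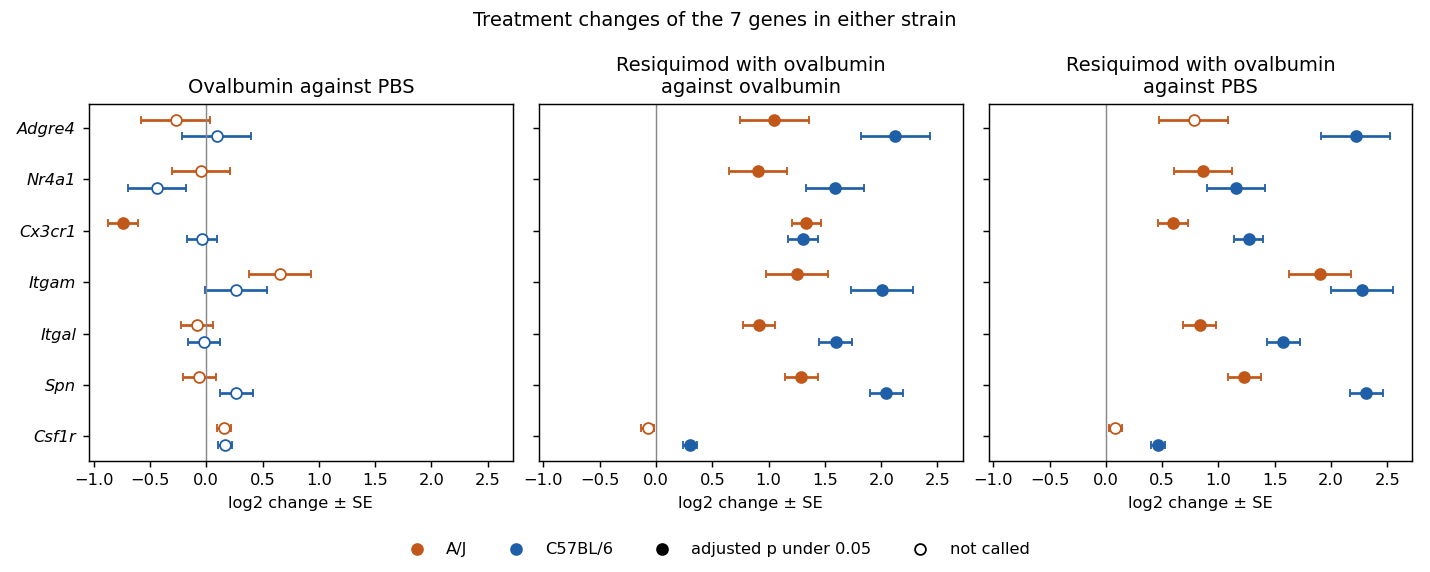
Log2 change of each of the 7 genes with its standard error, A/J in orange and C57BL/6 in blue, for ovalbumin against PBS, resiquimod with ovalbumin against ovalbumin, and resiquimod with ovalbumin against PBS; filled points have an adjusted p under 0.05. In the left panel only Cx3cr1 in A/J is filled (-0.74), and in the middle panel all are filled except Csf1r in A/J (-0.07), with the C57BL/6 point to the right of the A/J point for every gene but Cx3cr1.

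A/J lungs had lower levels than C57BL/6 lungs after resiquimod for 6 of the 7 genes, where 14% of all probe sets were called between the strains. Adgre4 differed most, by -1.87 ± 0.31 (adjusted p = 0.000406), followed by Spn with -1.02 ± 0.15 (adjusted p = 0.000116) and Nr4a1 with -0.996 ± 0.26 (adjusted p = 0.0142). Itgal differed by -0.98 ± 0.14 (adjusted p = 0.000139), Cx3cr1 by -0.93 ± 0.13 (adjusted p = 0.000114) and Csf1r by -0.40 ± 0.06 (adjusted p = 0.000203). Itgam gave -0.12, with an interval from -0.70 to 0.47, and was not called (adjusted p = 0.862). The Nr4a1 call was lost without A/J resiquimod replicate 1 (-0.90, adjusted p = 0.0542), A/J resiquimod replicate 3 (-0.76, adjusted p = 0.0849) or C57BL/6 resiquimod replicate 2 (-0.95, adjusted p = 0.0509), when only the groups compared were fitted (adjusted p = 0.0512) and without the squamous epithelium arrays (-0.85, adjusted p = 0.134).

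Without resiquimod 1 strain difference was called among the 7 genes, that of Cx3cr1 after ovalbumin. After PBS no member was called by limma (1, Nr4a1, had an unadjusted p under 0.05), where 8.54% of all probe sets were called. Nr4a1 was at -0.70 ± 0.26 there (adjusted p = 0.119), with all A/J lungs below all C57BL/6 lungs, and was called without A/J ovalbumin replicate 3 (adjusted p = 0.04), without A/J resiquimod replicate 2 (adjusted p = 0.0415) and when only the groups compared were fitted (adjusted p = 0.003). After ovalbumin Cx3cr1 was at -0.96 ± 0.13 (adjusted p = 0.000106), where 8.85% of probe sets were called. Adgre4, at -0.80 ± 0.31, was called there without A/J resiquimod replicate 3 (adjusted p = 0.0358) and when only the groups compared were fitted (adjusted p = 0.0197), and Itgam, at 0.64 ± 0.28, without A/J ovalbumin replicate 2 (0.98, adjusted p = 0.0266). The second Cx3cr1 probe set gave 0.00 ± 0.19 after ovalbumin and 0.07 ± 0.19 after resiquimod, so the strain difference of Cx3cr1 was measured on 1 of its 2 probe sets; which of them reports the transcript alike in both strains was not tested.

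**Figure D3:**
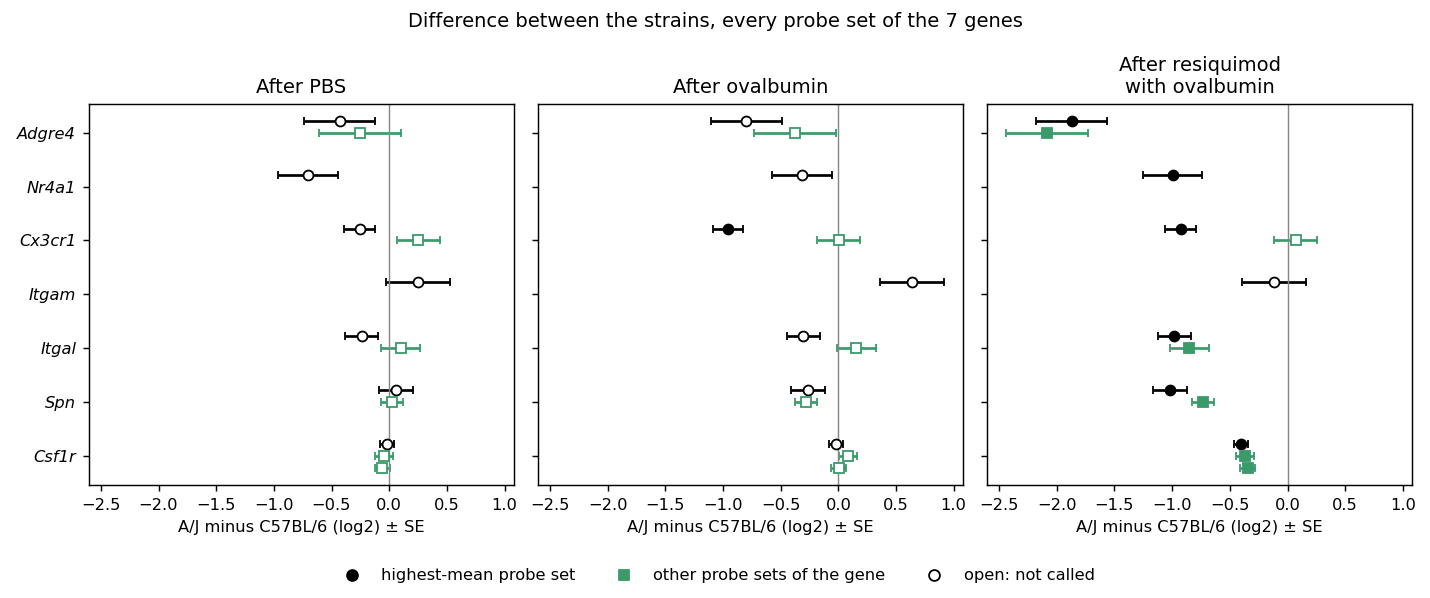
Difference between A/J and C57BL/6 (log2, A/J minus C57BL/6, with standard error) for every probe set of the 7 genes after PBS, after ovalbumin and after resiquimod with ovalbumin; circles are the highest-mean probe sets, green squares the others, and open symbols are not called. After resiquimod the called points run from -0.34 to -2.08, and the second probe set of Cx3cr1 stays at 0.07.

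Whether the strains differ in the size of the treatment effect was tested as the A/J change minus the C57BL/6 change. For resiquimod over ovalbumin the 7 differences ran from -1.07 ± 0.43 for Adgre4 to 0.03 ± 0.19 for Cx3cr1, with a median of -0.68 beside 0.01 over all genes. None was called by limma (4 had an unadjusted p under 0.05: Csf1r, Spn, Itgal and Adgre4), and 0.839% of all probe sets were called. Csf1r lay nearest to the threshold, at -0.38 ± 0.09 (adjusted p = 0.0523), and was called with trend and robust moderation of the spread (adjusted p = 0.00792), among probe sets above the 25th percentile (adjusted p = 0.0396) and for the mean of its probe sets (adjusted p = 0.046). Spn at -0.75 ± 0.21 gave an adjusted p of 0.106 (-0.93, adjusted p = 0.0275, without A/J resiquimod replicate 2), and Itgal at -0.68 ± 0.20 one of 0.137. For resiquimod against PBS all 7 differences were below 0 and 1 was called, Spn at -1.08 ± 0.21 (adjusted p = 0.0219), where 0.639% of probe sets were called. The second probe set of Spn gave -0.76 ± 0.13 (adjusted p = 0.014). The Spn call was lost when only the groups compared were fitted (adjusted p = 0.0809) and without the squamous epithelium arrays (-1.35, adjusted p = 0.302). It was also lost in 6 of the 18 fits without 1 array, those without A/J PBS replicate 2 or 3, C57BL/6 PBS replicate 1 or 2, or C57BL/6 resiquimod replicate 1 or 3, with adjusted p up to 0.0674 and values from -1.003 to -1.11. Without A/J resiquimod replicate 2 it held, beside Adgre4 (-1.81, adjusted p = 0.0368) and Itgal (-0.89, adjusted p = 0.0419). For ovalbumin none of the 7 was called by limma (1, Cx3cr1, had an unadjusted p under 0.05), and 0.0466% of probe sets were.

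The likeness of the 7 genes over the 18 arrays was uneven. Each gene was centred on its own mean and not scaled, so the measure also grows where 2 genes differ in spread. The root mean square difference was smallest between Itgal and Spn, at 0.28, and between Nr4a1 and Itgal, at 0.31. It was largest between Csf1r and either Adgre4 or Itgam, at 0.88. The standard deviation over the 18 arrays was 0.17 for Csf1r, 1.04 for Adgre4 and 1.001 for Itgam. Itgam also lay far from Cx3cr1 (0.81), Adgre4 (0.80) and Nr4a1 (0.78). Of all other genes, S1pr5, a sphingosine 1-phosphate receptor of NK cells and patrolling monocytes, lay nearest to Adgre4 (0.32), before the NK receptor chain Klre1 (0.39). Nr4a1 lay nearest to Itgal and then to Zc3h12d (0.32). The nearest to Cx3cr1 were Gpr182 (0.27), a receptor of endothelium, and Irf7 (0.30), a transcription factor of the interferon response. Itgam had Rac2, a GTPase of blood cells, and the phosphatase Ptpn22 at its side (both 0.35). Itgal was followed most closely by Cd244a (0.16), a receptor of NK cells, and by Pilra (0.17), an inhibitory receptor of myeloid cells. For Spn they were Ms4a4b (0.20), a T and NK cell membrane protein, and Slc11a1 (0.23), a metal transporter of phagocytes, and for Csf1r Lsm3 and Slc25a24 (both 0.07), whose own spread was small. These are likenesses over 18 arrays that share their treatments, given without a test.

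Other genes of patrolling monocytes rose with resiquimod in part. Of 20 such genes 18 were measured, and 6 rose and 1 fell in A/J while 8 rose in C57BL/6, with median changes of 0.19 and 0.30. Fcgr4, an activating IgG receptor, led with 2.59 ± 0.14 in A/J (adjusted p = 1.12e-08) and 3.50 ± 0.14 in C57BL/6 (adjusted p = 1.82e-10). Treml4, a receptor that binds dead cells, followed with 1.82 ± 0.25 and 2.70 ± 0.25, and the apolipoprotein Apoc2 with 1.56 ± 0.21 and 1.40 ± 0.21. S1pr5 rose by 0.66 ± 0.16 in A/J (adjusted p = 0.0159) and by 1.96 ± 0.16 in C57BL/6. Its signal was weak, with values from 2.98 to 5.75 beside a 25th percentile of 3.33 over all probe sets. Gngt2, a G protein subunit, was called in C57BL/6 at 1.69 ± 0.20 and not in A/J at 0.34 ± 0.20. Itgax, the CD11c chain, fell by 0.77 on the log2 scale in A/J (SE 0.11). For ovalbumin against PBS, which shares the ovalbumin arrays, it gave 1.37 ± 0.11 there and 0.69 ± 0.11 in C57BL/6.

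**Figure D4:**
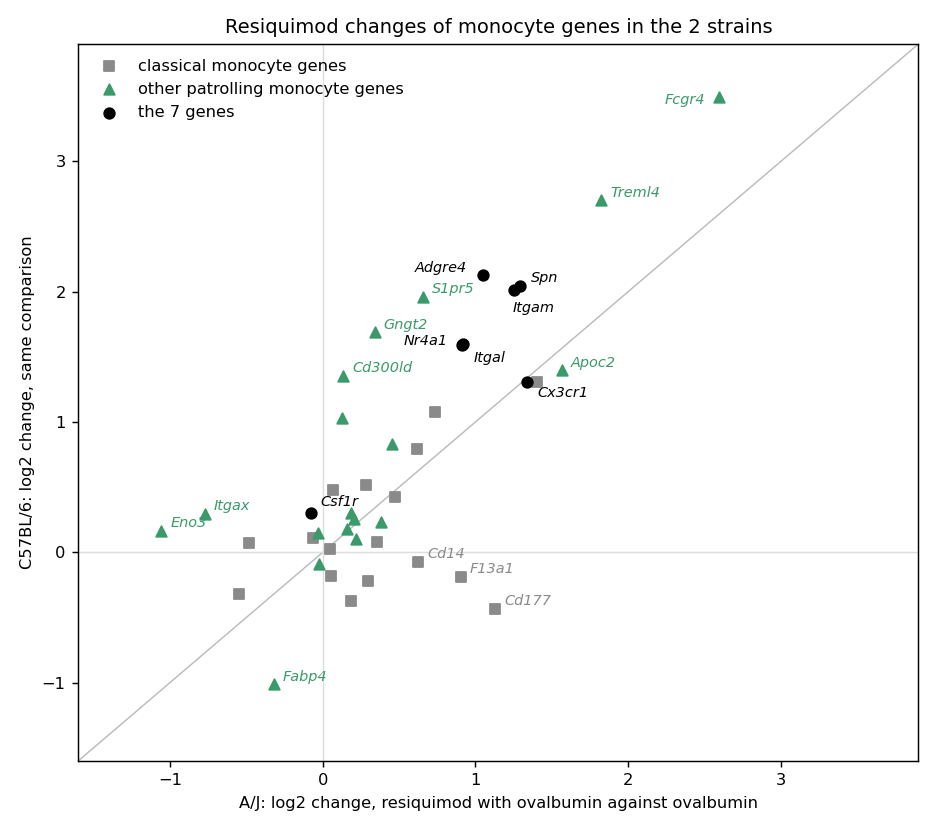
Log2 change with resiquimod with ovalbumin over ovalbumin in A/J (horizontal) and C57BL/6 (vertical) of the 7 genes (black circles; Nr4a1 and Itgal nearly coincide), 18 other patrolling monocyte genes (green triangles) and 17 classical monocyte genes (grey squares), with the line of equal change. Of the 7 genes all but Cx3cr1 lie above the line, and Fcgr4 lies farthest out at 2.59 and 3.50.

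Classical monocyte genes also rose with resiquimod in part, and the strain difference in its effect was called for 0 of the 17 measured by limma (6 had an unadjusted p under 0.05). Of the genes listed, 17 were measured by a probe set of their own, and Ly6c1 and Ly6c2 have no value here. In A/J 5 rose with resiquimod over ovalbumin and 1 fell (median 0.29), and in C57BL/6 3 rose (median 0.07). Ifitm6 (1.40 ± 0.40), the neutrophil and monocyte protein Cd177 (1.13 ± 0.27), the clotting factor chain F13a1 (0.90 ± 0.22) and the lipopolysaccharide co-receptor Cd14 (0.63 ± 0.12) rose in A/J. Plac8 (1.07 ± 0.22), the transcription factor Irf8 (0.52 ± 0.13) and the protease Ctsg (0.48 ± 0.09) rose in C57BL/6. Ccr2, the chemokine receptor that defines classical monocytes, gave 0.06 ± 0.20 in A/J and -0.18 ± 0.20 in C57BL/6 and was not called (adjusted p = 0.924 and 0.68). With ovalbumin alone 5 classical genes rose in A/J, among them Vcan (1.21 ± 0.20) and Ccr1 (1.05 ± 0.17), and 1 in C57BL/6, Cd14 (0.56 ± 0.12). For resiquimod with ovalbumin against PBS, 9 classical genes rose and 1 fell in A/J (median 0.72), and 7 rose in C57BL/6 (median 0.49). Of the 18 other patrolling monocyte genes 8 and 11 rose in that comparison, beside 5.86% and 9.61% of all genes.

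Ligands of the 2 receptors did not pass the test. Csf1, the Csf1r ligand, gave -0.06 ± 0.09 in A/J and -0.23 ± 0.09 in C57BL/6 for resiquimod over ovalbumin (adjusted p = 0.783 and 0.158). Il34, its second ligand, gave -0.19 ± 0.13 and -0.11 ± 0.13, and Cx3cl1, fractalkine itself, -0.04 ± 0.12 and -0.14 ± 0.12. Of the 15 measured genes of ligands and signalling, 3 rose in A/J and 7 in C57BL/6 and none fell. Tyrobp, the adaptor of myeloid and NK receptors, rose by 0.67 ± 0.12 and 1.08 ± 0.12, and the phosphatase Inpp5d by 0.58 ± 0.10 and 0.39 ± 0.10. Adam17, a protease that cleaves Cx3cl1 and Csf1r from the cell surface, rose by 0.34 ± 0.08 and 0.29 ± 0.08. Spi1, the factor PU.1 whose core was searched in the promoters above, rose by 0.71 ± 0.14 in C57BL/6 (adjusted p = 0.00296) and gave 0.30 ± 0.14 in A/J (adjusted p = 0.225).

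Some integrin partners of Itgal and Itgam rose. Of 17 measured genes, 7 rose, 2 fell and 8 were not called in A/J with resiquimod over ovalbumin (median 0.10), and 7 rose, 1 fell and 9 were not called in C57BL/6 (median 0.21). Itgb2, the beta chain that both alpha chains need, rose by 0.50 ± 0.11 in A/J (adjusted p = 0.00805) and by 1.26 ± 0.11 in C57BL/6 (adjusted p = 1.45e-06). Itga4, the alpha chain of VLA-4, rose by 0.72 ± 0.15 and 1.19 ± 0.15, the selectin ligand Selplg by 0.49 ± 0.11 and 0.98 ± 0.11, and the integrin activator Fermt3 by 0.50 ± 0.10 and 0.81 ± 0.10. Vcam1, the endothelial ligand of VLA-4, fell by 0.70 and by 0.66 on the log2 scale in A/J and C57BL/6 (SE 0.10 in each). For ovalbumin against PBS it gave 0.62 ± 0.10 and 0.77 ± 0.10. Both comparisons share the ovalbumin arrays, so no relation between them is drawn. Icam1, the main ligand of LFA-1, gave -0.30 ± 0.09 and -0.27 ± 0.09 for resiquimod over ovalbumin and was not called (adjusted p = 0.0691 and 0.0951).

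The relatives of Nr4a1 were not called where Nr4a1 was. Nr4a2 gave 0.07 ± 0.10 in A/J and -0.13 ± 0.10 in C57BL/6 for resiquimod over ovalbumin, and Nr4a3 gave -0.23 ± 0.13 and 0.30 ± 0.13. Of 17 measured genes of the family and other immediate early genes, none rose in A/J by limma (6 had a positive change with an unadjusted p under 0.05) and Egr2, a zinc finger factor, fell by 1.04 on the log2 scale (SE 0.13). In C57BL/6 Ier2 rose by 0.34 ± 0.09 and Egr2 fell by 0.69 (SE 0.13). For ovalbumin against PBS, which shares the ovalbumin arrays, Egr2 gave 1.35 ± 0.13 in A/J. Among 4 other adhesion receptors of leukocytes, the relatives of Adgre4, Adgre1 (the classical surface antigen of mouse macrophages) rose by 0.82 ± 0.14 and 1.41 ± 0.14 and Adgre5 (CD97) by 0.36 ± 0.08 and 0.32 ± 0.08.

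Markers of other cells that carry the 7 genes moved in the same lungs. All 11 NK and cytotoxic cell genes rose with resiquimod over ovalbumin in both strains, with medians of 2.68 and 2.85. Their mean level ran from 4.59 to 4.73 after ovalbumin and 6.96 to 7.42 after resiquimod in A/J, and from 5.12 to 5.26 and 8.06 to 8.37 in C57BL/6. Neutrophil genes rose in 6 of 10 cases in A/J and 8 of 10 in C57BL/6, with mean levels of 6.36 to 6.401 after ovalbumin and 7.27 to 7.99 after resiquimod in A/J, and of 6.66 to 7.11 and 7.70 to 7.98 in C57BL/6. Interstitial macrophage genes rose in 5 of 9 cases in each strain, with mean levels of 8.65 to 8.88 after ovalbumin and 8.83 to 9.34 after resiquimod in A/J, and of 8.58 to 8.61 and 8.94 to 9.15 in C57BL/6. T cell genes gave 1 fall of 10 in A/J and 4 rises in C57BL/6, and B cell genes 1 fall of 7 in A/J and 4 rises in C57BL/6. Eosinophil genes fell in 6 of 7 cases in A/J and in 3 in C57BL/6, with 1 rise there. Alveolar macrophage genes gave 1 rise and 2 falls of 7 in A/J and 3 rises in C57BL/6, lung epithelium 1 rise of 8 and 1 fall, and lung endothelium 3 rises and 1 fall of 8 and 3 rises. None of 11 squamous epithelium and 8 skeletal muscle genes was called by limma in either strain, and 0 had an unadjusted p under 0.05. The part of each of these cell types in the change of the 7 genes was not tested.

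**Figure D5:**
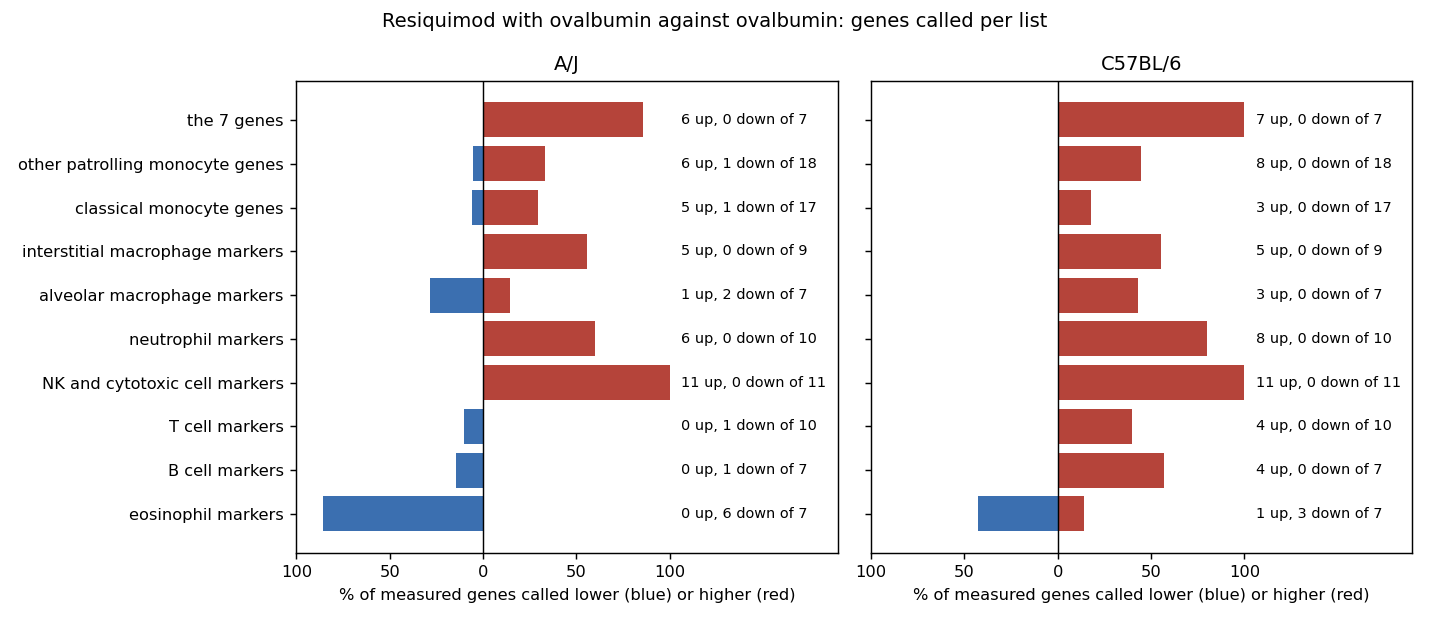
Share of the measured genes of each list called higher (red, to the right) or lower (blue, to the left) for resiquimod with ovalbumin over ovalbumin in A/J and C57BL/6, with the counts beside each bar. The 7 genes (6 and 7 higher) and the NK and cytotoxic cell genes (11 and 11 higher) have the longest bars to the right, and eosinophil genes are mostly lower in A/J (6 of 7).

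After resiquimod 9 of the 11 NK and cytotoxic cell genes were lower in A/J than in C57BL/6, beside the 6 members that were, and Klrk1 (-1.89 ± 0.15) and Klrd1 (-1.71 ± 0.16), both NK receptor chains, differed most. T cell genes were lower in A/J in 5 of 10 cases (median -0.45), neutrophil genes in 3 of 10 (median -0.37) and B cell genes in 2 of 7 (median -0.83). After ovalbumin 5 of 11 NK and cytotoxic cell genes and 3 of 10 neutrophil genes were lower in A/J. After PBS, where none of the 7 genes was called by limma, 3 NK and cytotoxic cell genes were lower in A/J, among them Klrd1 (-1.23 ± 0.16). Of the other patrolling monocyte genes 6 were lower in A/J and 1 was higher after resiquimod, with Cd300ld at -2.001 ± 0.10 and S1pr5 at -1.77 ± 0.16. Of the classical genes Plac8 was lower (-0.85 ± 0.22) and Hp, haptoglobin, higher (0.46 ± 0.12). As a measure of RNA integrity, the beta-actin control probe sets differed between the 3' and the 5' end by 0.39 to 0.57 in A/J resiquimod lungs and by 0.34 to 0.45 in C57BL/6 resiquimod lungs, and its part in the strain difference was not tested. It reached 0.67 in the C57BL/6 ovalbumin group, where the same measure for Gapdh reached 0.56, against at most 0.10 in every other group. All 7 genes stayed called for resiquimod over ovalbumin in C57BL/6 when any 1 array was left out. The part of RNA integrity in these calls was not tested.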

How the data were processed

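Whole-lung RNA of 18 mice was hybridised to Affymetrix Mouse Genome 430 2.0 arrays, 1 array per mouse and 3 per group of strain and treatment. The authors deposited log2 expression values. The submitters' processing notes name RMA, the robust averaging method for probe sets, and the affy package, without a version. RMA subtracts a modelled background, forces all arrays to 1 distribution and pools the probes of a probe set, so levels are relative and small differences between arrays in total signal are removed. The files used here give no scan batch.

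Of 45101 probe sets, 64 controls were left out and 45037 entered a limma model (version 3.58.1, R 4.3.3) of 6 group means (12 residual degrees of freedom, prior degrees of freedom 4.30). The 12 contrasts were tested two-sided with eBayes, with Benjamini-Hochberg adjustment across all 45037 of them. A gene is called at an adjusted p under 0.05. GEO's platform annotation, which can be old, names 1 gene for 34945 probe sets, several for 932 and none for 9160; the highest-mean single-gene probe set stands for each of 18193 genes. Intervals are 95% intervals of the fit. The labels call the samples biological replicates, and the p-values reflect the spread among these arrays alone.

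The members, the 18 gene lists and the tests were chosen with earlier results of these data known. The text names the 7 members, up to 4 called genes of another list with the largest change in a comparison, or up to 2 as values where none was called, and the 2 genes whose centred values lie nearest to a member's. Genes given for a second comparison or in the closing part, and ligands, partners, defining markers or relatives of a member, were added after their values were seen. The 9 alternatives in setting and the omission of each array in turn were computed. The labels state no pairing by replicate number. Over 45 same-number pairs of arrays from different groups the correlation of deviations from the group means ran from -0.63 to 0.61. Its mean was 0.06, beside -0.03 for pairs with other numbers, and these values cannot decide whether same-number arrays share more than a number. The pipeline was tested on simulated data.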

Additional observations from a re-analysis of the deposited data

Results flagged for a closer look

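The effect of resiquimod over ovalbumin differed between the strains, by limma's test of the difference (A/J change minus C57BL/6 change), for 6 of 18 patrolling monocyte genes, among them Itgax, which is also an integrin partner, and for the integrin partner Itgb2, where 0.839% of all probe sets were called. The same test called 3 of 7 eosinophil, 2 of 10 T cell and 1 of 11 NK and cytotoxic cell genes. It also called 1 of 7 B cell, 1 of 7 alveolar macrophage and 1 of 8 lung endothelium genes, all with the lower change in A/J. For eosinophil genes the lower change was a larger fall. Their mean level was 5.56 in A/J and 4.70 in C57BL/6 after ovalbumin, and 4.07 and 3.98 after resiquimod. S1pr5 differed by -1.30 ± 0.22 (adjusted p = 0.0115) and Gngt2 by -1.35 ± 0.28 (adjusted p = 0.0328). Cd300ld differed by -1.22 ± 0.13 (adjusted p = 0.000411), and each of these genes was called in C57BL/6. S1pr5 had weak signal, with a mean of 3.17 after ovalbumin in A/J beside a 25th percentile of 3.33. Itgax differed by -1.07 ± 0.16 (adjusted p = 0.00498), falling in A/J (-0.77) where C57BL/6 gave 0.30. These differences take the ovalbumin arrays as their baseline, and the Itgax changes for ovalbumin against PBS given above share those arrays. Fcgr4, the gene with the largest rise of its list in both strains, still differed by -0.90 ± 0.20 (adjusted p = 0.0424). Pglyrp1, a peptidoglycan-binding protein also made by neutrophils, differed by -0.90 ± 0.19 (adjusted p = 0.0379), and Itgb2, the beta chain shared by Itgal and Itgam, by -0.76 ± 0.15 (adjusted p = 0.028).

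For resiquimod with ovalbumin against PBS the strains differed in Spn (-1.08 ± 0.21, adjusted p = 0.0219), the member described above, whose call was lost in 6 of 18 fits without 1 array and in 2 other settings, in S1pr5 (-1.58 ± 0.22, adjusted p = 0.00219), in Cd300ld (-1.54 ± 0.13, adjusted p = 1.61e-05) and in Icam2, an adhesion molecule of endothelium (-0.50 ± 0.10, adjusted p = 0.0225). Fos, an immediate early factor, went the other way (1.38 ± 0.28, adjusted p = 0.0343): it rose by 1.01 ± 0.20 in A/J and gave -0.37 ± 0.20 in C57BL/6. Of other lists, the same test called 2 of 11 NK and cytotoxic cell, 1 of 10 T cell and 1 of 7 B cell genes. These had the lower change in A/J. Of 7 eosinophil genes limma called 0 (1 had an unadjusted p under 0.05). Among 10 neutrophil genes 1 had the higher change in A/J, and of 8 lung endothelium genes 1 had the higher and 1 the lower. Of the 18 other patrolling monocyte genes only S1pr5 and Cd300ld were called against PBS. Itgax, Gngt2, Fcgr4, Pglyrp1 and Itgb2, which were called over ovalbumin, were not. The share of all probe sets called was 0.639%. Single outlying samples were not tested in these groups of 3 arrays.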

How the results depend on the processing

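Some counts of called members stayed within 1.5 times of the reported value in all 9 other settings and all 18 fits without 1 array. They were those for resiquimod over ovalbumin and over PBS in C57BL/6 (7 and 7) and for the strains after resiquimod (6). Those for ovalbumin in C57BL/6 (0) and for the strain difference in the ovalbumin effect (0) did not change. Within that bound, the count for the strains after resiquimod went down to 5. The counts over ovalbumin and over PBS in C57BL/6 were lower without the squamous epithelium arrays. There Csf1r gave 0.31 over ovalbumin and 0.50 over PBS, and Nr4a1 gave 1.07 over PBS. Fitting only the groups compared gave 0 for ovalbumin in A/J, 3 for resiquimod over ovalbumin in A/J, 1 for the strains after PBS, 2 for the strains after ovalbumin and 0 for the strain difference of resiquimod against PBS. Without the arrays that hold squamous epithelium transcripts these were 0 for ovalbumin in A/J, 2 for resiquimod over ovalbumin in A/J, 2 for resiquimod over PBS in A/J and 0 for the strain difference of resiquimod against PBS; that setting leaves 10 arrays, with a group of 1 array assumed to vary like the others. The second probe set gave 0 for ovalbumin in A/J and 0 for the strains after ovalbumin. The strain difference in the resiquimod effect gave 1 with trend and robust moderation, above the 25th percentile and with the mean of all probe sets, and that against PBS gave 2 with trend and robust moderation and above the 25th percentile. The replicate block left every count of called members at its reported value, for example 6 for resiquimod over ovalbumin in A/J. The labels do not say whether same-number arrays share more than a number (mean correlation of deviations 0.06, with 7 of 18 arrays closest to an array of their own number).

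Leaving out 1 array gave ranges of 1 to 2 called members for ovalbumin in A/J, 4 to 6 for resiquimod over ovalbumin in A/J, 3 to 6 for resiquimod over PBS in A/J, 0 to 1 for the strains after PBS, 1 to 2 after ovalbumin and 5 to 6 after resiquimod, and 0 to 1 and 0 to 3 for the strain differences in the resiquimod effect and against PBS. The 3 came without A/J resiquimod replicate 2, the 0 without A/J PBS replicate 2, C57BL/6 PBS replicate 1 or 2, or C57BL/6 resiquimod replicate 1 or 3, the lowest 3 for resiquimod over PBS without A/J PBS replicate 2, and the 2 after ovalbumin without A/J ovalbumin replicate 2 or A/J resiquimod replicate 3. The cause of these shifts was not tested, other than that fewer arrays and fewer degrees of freedom enter.

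Of 34 called member changes 18 were called in every setting and leave-one-out fit, and 2 changed sign, both for Cx3cr1 with its second probe set (0.0016 between strains after ovalbumin, 0.073 after resiquimod). Among 50 uncalled changes 16 changed sign somewhere, the largest of them 0.39 in size, and none was called where its sign differed. With the second probe set these were Cx3cr1 and Itgal between strains after PBS (0.25, 0.10), Itgal and Csf1r after ovalbumin (0.16, 0.084), and Itgal and Csf1r in the strain difference of the ovalbumin effect (0.055, 0.13). With the mean of all probe sets Csf1r gave 0.021 and 0.062 in the last 2 comparisons, and with array weights 0.0078 in the last. Without the squamous epithelium arrays Nr4a1 gave 0.34 for ovalbumin in A/J and 0.16 between strains after ovalbumin, Itgal 0.10 for ovalbumin in C57BL/6, Itgam -0.11 for the strain difference of the ovalbumin effect and Cx3cr1 -0.20 for that of resiquimod. Leaving out 1 array, Nr4a1 ran from -0.25 to 0.30 for ovalbumin in A/J, and in C57BL/6 Adgre4 ran from -0.088 to 0.26, Cx3cr1 from -0.083 to 0.025 and Itgal from -0.10 to 0.079. Between strains Spn ran from -0.017 to 0.17 and Csf1r from -0.051 to 0.030 after PBS, Nr4a1 from -0.52 to 0.026 after ovalbumin and Itgam from -0.23 to 0.11 after resiquimod. In the strain difference of the ovalbumin effect Itgal ran from -0.16 to 0.020 and Csf1r from -0.054 to 0.026, and in that of resiquimod Cx3cr1 ran from -0.13 to 0.15. With 3 arrays a group, the calls of Nr4a1 and Adgre4 for resiquimod over ovalbumin in A/J lie close to the threshold, and probe sets near 3.33 have weak signal.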
